A study of Mus musculus with 3 samples.

Results

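The replication-dependent histone genes of the mouse encode the core histones H2A, H2B, H3 and H4 and the linker histone H1, and were chosen by their symbols: every annotated gene whose symbol begins with Hist1h, Hist2h, Hist3h or Hist4h and carries no pseudogene suffix. This gave 69 of the 55536 annotated genes, 6 of them H1, 20 H2A, 18 H2B, 12 H3 and 13 H4. GENCODE lists 67 as protein-coding, and Hist1h2aj and Hist1h2al as pseudogenes. The RNA came from the nuclear (nucleoplasmic) fraction of C57BL/6J macrophages grown from bone marrow, sequenced as total RNA after removal of ribosomal RNA, so that transcripts without a poly(A) tail were measured too. All cells had received 100 ng/ml lipid A (a TLR4 agonist, the lipid anchor of bacterial endotoxin) for 12 h, had been washed and left for 12 h, and had received 100 ng/ml lipid A again for 15 min. There were 3 libraries of this 1 group, made from 500 ng RNA (replicate 2) or from 1 µg (replicates 1 and 3). The labels give all 3 the same donor identifier and do not say if more than 1 mouse was used, so the spread between them may be technical. Sex and age were not recorded, and no untreated cells or other fractions are analysed here.

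Histones package DNA into nucleosomes. Cells make most of their histone mRNA from the replication-dependent genes in S phase, when new DNA has to be packaged, while the replication-independent genes (such as H3f3a and H3f3b, which encode H3.3) are also used outside it. Replication-dependent histone mRNAs are unusual in that most end in a conserved stem-loop in place of a poly(A) tail: the stem-loop binding protein SLBP and the U7 small nuclear RNA direct cleavage just after it, and SLBP stays with the mRNA. In cells that leave the cell cycle, some of these genes are known to give longer, polyadenylated transcripts as well.

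Annotated genes held 19312032 expected counts in the 500 ng library and 23826101 and 21730342 in the 1 µg libraries (replicates 1 and 3). Expected counts are reads assigned to genes by likelihood, so a read shared by copies is divided among them. All 8 macrophage markers were detected, meaning that each library gave them 1 TPM (transcripts per 1000000 transcripts) or more. None of the 7 granulocyte, 3 stem and progenitor, 3 B cell, 2 T cell, 3 erythroid or 3 fibroblast markers was. The histone genes held 5099.96 counts in the 500 ng library, against 10261 and 11704 in the 1 µg libraries, which is 0.0264%, against 0.0431% and 0.0539%, of all counts.

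The stem-loop was present in the annotated transcripts of 46 of the 69 genes. Another 11 genes are annotated as coding sequence alone, with no end beyond the stop codon in which a stem-loop could lie. Among other annotated genes, 20 of 55381 (0.0361%) held a sequence of the same form. It lay 21 to 58 bases after the stop codon, with a median of 31. There were 8 versions of the 16 bases, and they divided by histone class. All 12 H4 genes with a stem-loop had a stem beginning GGCC or GGTC, and all 34 such genes of the other classes had one beginning GGCT. The sites below are shown to compare these versions, 1 gene for each, as read from the GENCODE M21 transcripts, 5′ to 3′ along the mRNA with T for U and with the stem-loop in capitals.
Hist2h2aa2: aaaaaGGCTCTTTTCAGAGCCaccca
Hist1h3e: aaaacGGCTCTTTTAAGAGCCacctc
Hist2h2ac: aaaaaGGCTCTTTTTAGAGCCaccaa
Hist1h3g: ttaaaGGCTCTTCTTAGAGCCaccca
Hist1h4m: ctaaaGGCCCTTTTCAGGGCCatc
Hist1h4i: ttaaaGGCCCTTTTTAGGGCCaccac
Hist1h4b: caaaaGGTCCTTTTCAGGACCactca
Hist1h4a: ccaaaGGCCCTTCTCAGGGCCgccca
In mm10 these stem-loops lie at chr3:96239784-96239799 (Hist2h2aa2, minus strand), chr13:23561903-23561918 (Hist1h3e, minus), chr3:96220418-96220433 (Hist2h2ac, minus), chr13:23535889-23535904 (Hist1h3g, plus), chr13:21812129-21812144 (Hist1h4m, plus), chr13:22040966-22040981 (Hist1h4i, minus), chr13:23757366-23757381 (Hist1h4b, plus) and chr13:23760800-23760815 (Hist1h4a, minus), each in the 3′ part of the transcript after the coding sequence. The version of Hist2h2aa2 is the commonest, with 26 genes of H1, H2A, H2B and H3, and that of Hist1h4m has 7 genes, all H4. In 2 genes, Hist1h4m and Hist1h2ap, the annotated transcript ends within 10 bases of the stem-loop, where cleavage is known to fall. In 23 genes it runs on for more than 100 bases, as in Hist1h1c, whose transcript of 1560 bases continues for 840 bases. A further 12 genes have annotated transcripts that are more than coding sequence, or that are not coding, and hold no match to the stem-loop form. Hist1h2bc and Hist2h2be are among them. So are Hist1h2af (399 bases) and Hist1h2ah (405 bases), which are little longer than the coding-only H2A gene Hist1h2ai (393 bases). In such transcripts a missing match can reflect where the annotation ends.

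Of the 69 histone genes 40 were detected (58.0%), against 9434 of 22028 protein-coding genes (42.8%) and 11261 of all 55536 genes (20.3%). By class these were 4 of 6 H1, 10 of 20 H2A, 9 of 18 H2B, 6 of 12 H3 and 11 of 13 H4 genes. A further 14 genes averaged at least 1 TPM without reaching it in every library, and 15 averaged less. The median gene stood at 1.26 in the 500 ng library and at 2.28 and 1.86 in the 1 µg libraries, on a scale of log2(TPM + 1), beside 0.48, 0.43 and 0.41 for all protein-coding genes in the same libraries. Since these are bulk nuclei, fewer cells with histone transcripts and less histone RNA per cell cannot be told apart.

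**Figure D1:**
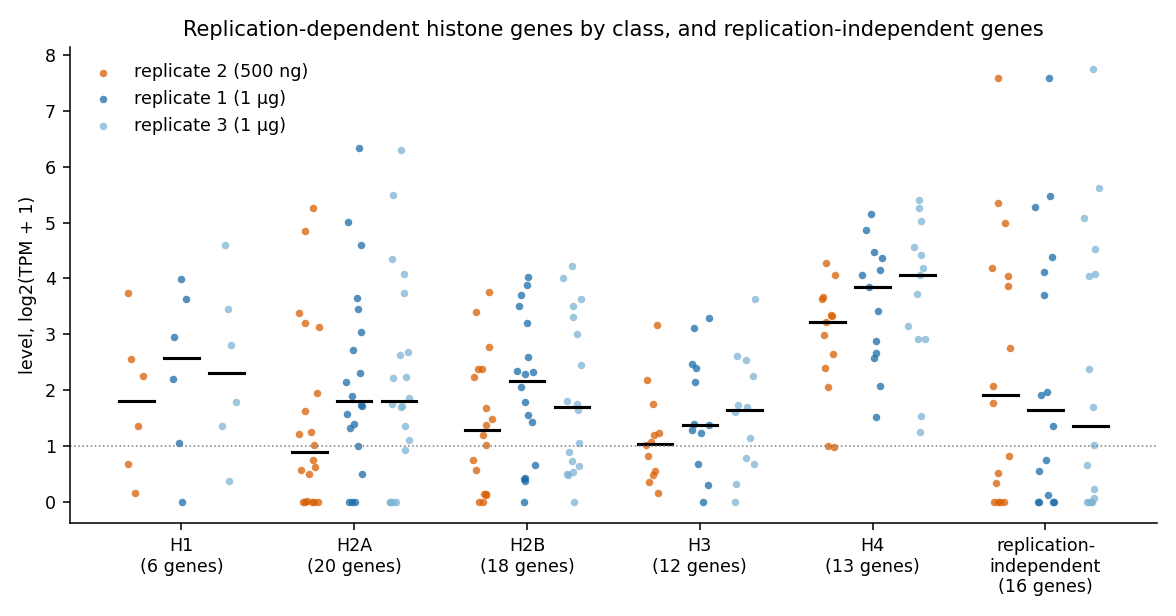
Levels of the 69 replication-dependent histone genes by class and of 16 replication-independent histone genes, as log2(TPM + 1) (vertical axis). Each point is a gene in 1 library, black bars are medians, and the dotted line is the detection level of 1 TPM. The H4 genes have the highest median in each library, between 3.22 and 4.07.

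H4 and H2A together held most of the histone RNA, and H2A held the single most abundant gene. Summed over its genes, H4 reached 105 TPM in the 500 ng library, against 181 and 223 TPM in the 1 µg libraries. H2A reached 102 TPM, against 190.1 and 201 TPM. H2B reached 49.4 TPM, against 87.4 and 86.3 TPM. The remaining classes were lower: H3 had 20.6 TPM, against 35.4 and 34.4 TPM, and H1 had 23.3 TPM, against 37.7 and 43.6 TPM. In every class the 500 ng library had the lowest sum, while the shares moved little: H4 held 35.7% ± 1.98 of the genes' summed TPM, H2A 34.6% ± 1.01, H2B 15.9% ± 1.04, H1 7.41% ± 0.332 and H3 6.45% ± 0.535 (mean ± SD over libraries, n = 3). The summed H2A level was 2.06 times that of H2B in the 500 ng library, against 2.17 and 2.33 times in the 1 µg libraries, and the H4 level 5.12 times that of H3, against 5.11 and 6.48 times.

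The shares depend on the unit. By expected counts, which are not divided by length, H1 held 16.9% ± 0.823, H2A 39.0% ± 0.293, H2B 16.8% ± 1.62, H3 4.49% ± 0.294 and H4 22.8% ± 1.41. H1 transcripts have a median annotated length of 1236 bases, against 539 bases in H4. TPM divides by the effective length, the number of positions at which a fragment can start, and this becomes small for short transcripts. Hist1h4k, annotated as 312 bases of coding sequence, had an effective length of 99.2 bases in the 500 ng library, against 97.7 and 132 bases in the 1 µg libraries, while Hist1h1c had 1341 bases, against 1337 and 1377 bases. The kallisto-format values, which come from a separate assignment of reads to transcripts, gave nearly the same shares as the deposited TPM (H4 36.0%, H2A 34.3%).

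**Figure D2:**
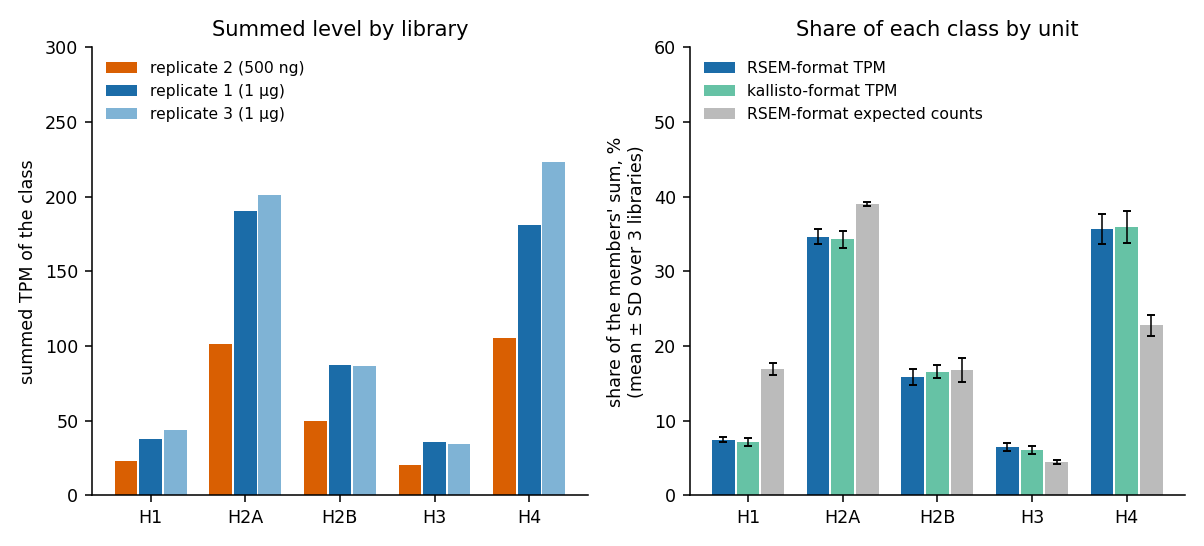
Left, summed TPM of each histone class in each library. Right, share of each class in the sum over all 69 genes by RSEM-format TPM, kallisto-format TPM and RSEM-format expected counts, as mean and SD over 3 libraries. H1 rises to 16.9% and H4 drops to 22.8% when counts replace TPM.

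Among the H2A genes, which encode a core histone that pairs with H2B, Hist2h2aa2 was the most abundant of all 69 (chr3:96239749-96240276, minus strand). It had 37.4 TPM in the 500 ng library, against 79.9 and 78.3 TPM in the 1 µg libraries, from 299, 893 and 859 expected counts. Its whole transcript is also found in the neighbouring copy Hist2h2aa1, which was assigned 7.81 TPM, against 11.5 and 15.98 TPM. Hist2h2aa1 overlaps Gm20634 on the same strand (mean 6.16 TPM) and the antisense gene Gm20633 (2.52 TPM), and Hist2h2aa2 overlaps the antisense gene Gm20632 (3.83 TPM). The division of reads among these genes is uncertain, and the posterior SD of the count of Hist2h2aa1 was 28.1% of its mean in the 500 ng library, against 16.5% and 17.5%.

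Hist3h2a (chr11:58954685-58956830, plus strand) came next in RSEM-format TPM and had the most counts. It had 28.0 TPM in the 500 ng library, against 31.4 and 44.3 TPM, from 1398, 2211 and 2767 counts. Its annotated transcript of 2146 bases runs 1643 bases past the stem-loop, and 31.5% of its 50-base windows lie in Trim17, a ubiquitin ligase gene that overlaps it on the same strand and had a mean of 1.29 TPM. Hist2h2ac had 9.41 TPM in the 500 ng library, against 23.3 and 19.4 TPM in the 1 µg libraries. Its stem-loop is the sole one of its version, shown above. At the low end of the detected H2A genes, Hist2h2ab had 1.03 TPM, against 2.71 and 2.29 TPM. The 500 ng library was the lowest for each of these genes and overlapped neither of the others. It was the lowest in TPM in 15 of the 15 H2A genes tested in the input comparison below, against 2925 of all 16254 genes tested.

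Of the H2B genes, Hist2h2bb had the highest mean TPM, with 9.58 TPM in the 500 ng library, against 15.3 and 17.7 TPM in the 1 µg libraries. It lies entirely within sequence that the annotation also gives to an antisense gene, Gm20628, and no source used here says if the counting used the strand. In kallisto-format TPM, rescaled as described below, Hist2h2bb averaged 48.0 ± 17.0, below Hist1h2bc at 56.8 ± 9.66 (SD, n = 3). Hist1h2bc, also without a stem-loop in its annotated transcript of 1156 bases, had 12.6 TPM, against 12.0 and 15.1 TPM. It was the least variable detected member, with an SD of 0.16 on the log2(TPM + 1) scale. Hist2h2be, whose annotated transcript of 2620 bases shares no 50-base window with another gene, had 5.82 TPM, against 5.01 and 7.01 TPM. In both of these genes the 500 ng library fell between the others in TPM, though not on the CPM scale used below. Hist1h2bj varied the most (SD 0.84), with 3.71 TPM, against 13.8 and 8.96 TPM. Hist1h2bg had 4.2 TPM, against 10.4 and 11.3 TPM. Hist1h2be, the lowest detected H2B gene, had 1.29 TPM, against 1.94 and 2.11 TPM.

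H3 genes fall into those that encode H3.1 (Hist1h3a, Hist1h3g, Hist1h3h and Hist1h3i) and those that encode H3.2. The 4 H3.1 genes held 38.0% ± 8.19 of the H3 TPM (SD, n = 3), or 24.2% ± 6.56 of the H3 counts. Hist2h3b, an H3.2 gene, was the highest, with 7.93 TPM in the 500 ng library, against 8.74 and 11.4 TPM in the 1 µg libraries, but no window of its transcript was unique. All of them are also found in the antisense gene Gm20628 (mean 2.57 TPM), so that its place as the highest is uncertain. Hist1h3a, the highest H3.1 gene, had 3.51 TPM, against 7.62 and 5.12 TPM. Hist1h3h had 1.30 TPM, against 4.56 and 4.81 TPM, Hist1h3e 2.35 TPM, against 3.41 and 3.74 TPM, and Hist1h3d, the lowest detected, 1.02 TPM, against 1.61 and 2.25 TPM. The 500 ng library was the lowest in all of these H3 genes. On the CPM scale it was the lowest in 10 of 11 H3 genes with a mean of at least 10 expected counts. Over all 15353 genes with that mean it was the lowest in 34.9%. Hist2h3c1 was the exception in the class: it was assigned 45.3 counts in the 500 ng library and 0 in both 1 µg libraries. Its transcripts have no unique window, the kallisto-format table gives it 0 counts in all 3 libraries, and all of its windows are also found in Gm20634, a processed transcript that overlaps it on the same strand and averaged 6.16 TPM. Its copies Hist2h3b and Hist2h3c2 share its sequence too.

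All 13 H4 genes encode 1 and the same protein of 103 residues, as translated from the GENCODE transcripts, so their RNA can be summed as a product even where copies cannot be told apart. Hist1h4m and Hist1h4n share 89.8% and 83.2% of their windows with each other. Hist1h4m had 18.4 TPM in the 500 ng library, against 28.3 and 41.2 TPM in the 1 µg libraries, and Hist1h4n had 15.7 TPM, against 34.6 and 37.4 TPM. Hist1h4k had 11.4 TPM, against 16.9 and 31.8 TPM. In kallisto-format TPM, rescaled as described below, Hist1h4k was the highest H4 gene, with a mean of 139.5 ± 63.9 (SD, n = 3). On that scale Hist1h4n averaged 100.3 ± 45.9, Hist1h4m 93.3 ± 46.8 and the H2A gene Hist3h2a 129.5 ± 30.5. Hist1h4i, with 71.1% of its windows unique, had 9.21 TPM, against 21.4 and 22.8 TPM. The values of the 500 ng library lay below both others in each of these 4 genes. In TPM this held for 12 of the 13 H4 genes, and on the CPM scale of the input comparison below for 13 of 13. All 13 had a mean of at least 10 expected counts. On the CPM scale the share over all 15353 genes with that mean was 34.9%. Hist2h4, nearly unique in sequence (99.0% of windows), had 5.28 TPM, against 4.95 and 6.53 TPM. Its groups thus overlapped in TPM, though not on the CPM scale used in the input comparison below. Hist1h4j, the lowest detected H4 gene, had 3.16 TPM, against 5.34 and 6.56 TPM, and Hist1h4h had 11.7 TPM, against 15.7 and 15.8 TPM.

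The 6 H1 genes encode 6 different linker histones, which bind DNA where it enters and leaves the nucleosome. Hist1h1c led with 12.3 TPM in the 500 ng library, against 14.9 and 23.3 TPM in the 1 µg libraries, and 91.5% of its windows were unique. Hist1h1e had 4.91 TPM, against 6.70 and 10.01 TPM. Hist1h1a had 3.77 TPM, against 11.5 and 5.97 TPM, the widest ratio between the 1 µg libraries among the detected H1 genes. Hist1h1b had 1.55 TPM, against 3.57 and 2.47 TPM, and Hist1h1d 0.60 TPM, against 1.06 and 1.55 TPM. In these 5 genes the 500 ng library was again the lowest, on the CPM scale too. They are the 5 H1 genes with a mean of at least 10 expected counts. On the CPM scale the share over all 15353 genes with that mean was 34.9%. The testis form Hist1h1t had 2, 0 and 7 counts in replicates 2, 1 and 3. The testis pair Hist1h2aa and Hist1h2ba and both annotated pseudogenes, Hist1h2aj and Hist1h2al, were listed at 0 expected counts in every library. A count of 0 allows up to 3 counts in each for counting error alone. The kallisto-format table gave Hist1h2aj 3.32 estimated counts in the 500 ng library and 0 in both 1 µg libraries.

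By genomic position, Hist1 on chromosome 13 held 63.8% ± 1.87 of the summed TPM with 56 genes, Hist2 on chromosome 3 held 28.2% ± 0.796 with 10 genes, Hist3 on chromosome 11 held 7.64% ± 1.69 with 2 genes, and Hist4 on chromosome 6 held 0.334% ± 0.0123 with 1 gene (SD, n = 3). The Hist3 share was 24.2% by counts, nearly all of it Hist3h2a. Within chromosome 13, the 29 genes at chr13:23531050-23764406 summed to 98.6 TPM in the 500 ng library, against 167 and 186 TPM in the 1 µg libraries. The 19 genes at chr13:21715763-21837530 summed to 69.8 TPM, against 133 and 154 TPM. The 5 genes at chr13:22035164-22043676 summed to 16.6 TPM, against 45.1 and 41.0 TPM. The 10 genes of Hist2 at chr3:96219865-96270132 summed to 86.1 TPM, against 153 and 161 TPM. No group of neighbours carried the whole signal, and all 4 had their lowest sum in the 500 ng library.

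Many H2A and H2B genes lie head to head and share the DNA between their starts. There were 13 such pairs with starts 176 to 306 bases apart, and 12 of them had any TPM. The ratio of the annotated products in TPM differed between pairs. The H2A gene was higher in TPM in all 3 libraries in 5 pairs and in no library in 6 pairs. In the kallisto-format table these were 4 and 5 pairs: Hist1h2ad was not above Hist1h2bf, nor Hist1h2ao below Hist1h2bq, in every library. Hist1h2ac averaged 1.08 ± 0.445 TPM beside 13.2 ± 1.63 TPM of its partner Hist1h2bc, and Hist1h2ag 2.99 ± 1.40 TPM beside 8.83 ± 5.06 TPM of Hist1h2bj. In the other direction, Hist2h2ac averaged 17.4 ± 7.15 TPM beside 5.95 ± 1.01 TPM of Hist2h2be. Hist1h2ap averaged 10.2 ± 2.11 TPM beside 1.77 ± 1.31 TPM of Hist1h2br (SD, n = 3). Only 6.93% of the windows of Hist1h2ap and 6.78% of those of Hist1h2br are unique. Most of the others lie in the copies Hist1h2ao and Hist1h2bq, so the levels of this pair are uncertain. By expected counts, which are not divided by length, the direction between Hist2h2ac and Hist2h2be turned in every library. Hist2h2ac had 73.4 to 253 counts and Hist2h2be 362 to 544, with annotated transcripts of 520 and 2620 bases. The pairs of Hist1h2ac, Hist1h2ag and Hist1h2ap kept their direction by counts in every library.

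**Figure D3:**
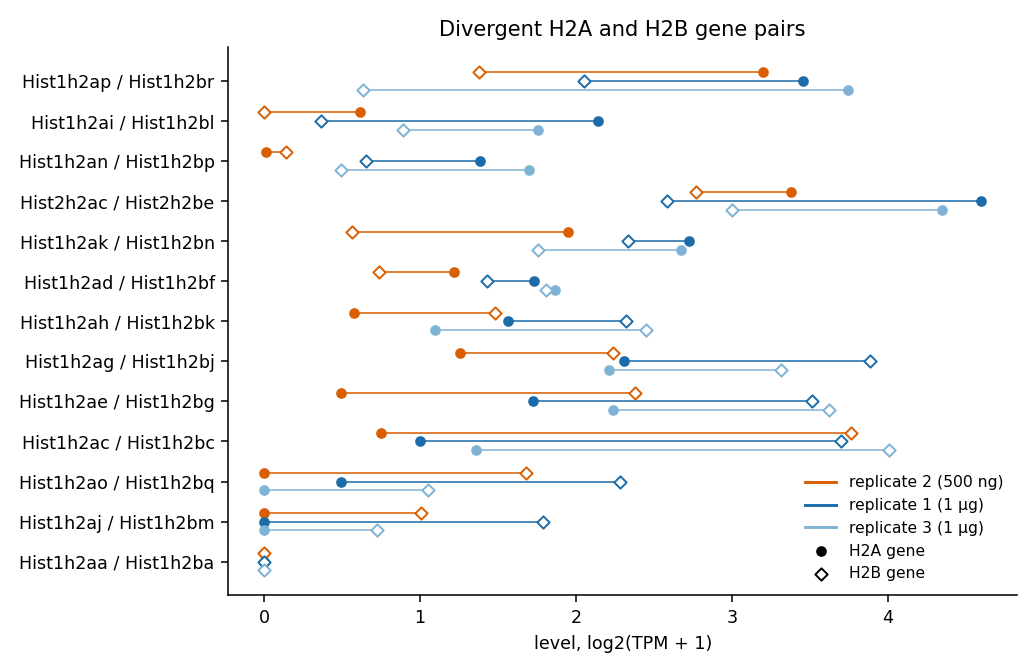
Levels, as log2(TPM + 1) (horizontal axis), of the H2A gene (filled circle) and the H2B gene (open diamond) of 13 divergent pairs in each library. The H2A gene is higher in all 3 libraries in 5 pairs and the H2B gene in 6, and the pair Hist1h2aa and Hist1h2ba is at 0.

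Promoter windows of 300 bases (250 before the start to 50 after it) were found for 61 of the genes in the RefSeq table for GRCm38.p6, under their current symbols. On either strand and with each motif counted on its own, whether or not it overlapped another, CCAAT occurred in 52 of 61 windows (85.2%), against 37.4% of the 32851 windows in the table. It was in every window of the H1, H2A, H2B and H3 genes and in 3 of 12 H4 windows. TATAAA occurred in 34 of 61 (55.7%), against 13.6%. The octamer ATTTGCAT occurred in 13 of 61 (21.3%), against 1.74%, and the 13 were 7 of 18 H2A and 6 of 16 H2B windows. Windows of head-to-head partners overlap, so the same motif site can count for both genes, as the octamer of Hist1h2ae and Hist1h2bg does. The windows are therefore not independent. AAACACA, known from H1 promoters, occurred in 8 of 61 (13.1%), against 7.18%, and in 4 of 5 H1 windows. The parts of 4 windows that hold these motifs are shown, with the octamer or AAACACA and any TATAAA in capitals, to set the H2B arrangement beside that of H1.
Hist1h2bg: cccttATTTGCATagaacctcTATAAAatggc
Hist2h2bb: acctcATTTGCATacaag
Hist1h1e: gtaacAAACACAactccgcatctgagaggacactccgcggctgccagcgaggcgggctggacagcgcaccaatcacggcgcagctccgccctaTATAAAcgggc
Hist1h1c: gtaacAAACACAagttg
They lie at chr13:23571336-23571367 (Hist1h2bg, plus strand), chr3:96269647-96269664 (Hist2h2bb, plus), chr13:23622575-23622678 (Hist1h1e, minus) and chr13:23738690-23738706 (Hist1h1c, plus) in GRCm38.p6, just before the annotated starts. A match is a description of the letters in these windows.

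The 16 genes of the replication-independent list served as a comparison, and 9 were detected. H3f3b, which encodes H3.3, stood above every replication-dependent gene, with 192 TPM in the 500 ng library, against 193 and 215 TPM in the 1 µg libraries. H2afy (macroH2A) had 40.0 TPM, against 43.3 and 48.3 TPM, and H3f3a 30.9 TPM, against 37.8 and 33.0 TPM. H2afz, H2afj and H1f0 averaged 17.5 ± 2.20, 17.3 ± 4.28 and 14.5 ± 2.06 TPM, and H2afv, H2afx and Cenpa 4.28 ± 1.43, 2.48 ± 0.271 and 1.93 ± 1.14 TPM. The replication-dependent genes as a whole summed to 300.13 TPM in the 500 ng library, against 532 and 589 TPM, and the replication-independent genes to 322 TPM, against 331 and 358 TPM. The replication-dependent sum was thus 0.932 times the replication-independent sum in the 500 ng library, against 1.61 and 1.64 times in the 1 µg libraries. The difference of the list medians was 0.16 ± 0.72 on the log2(TPM + 1) scale (SD, n = 3), smaller than its spread, and its sign changed to -0.08 without replicate 1 and to -0.01 without replicate 3. Over the genes of both lists with a mean of at least 1 TPM the direction turned, to -1.65 ± 0.34, beyond its spread.

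Genes that act on histone mRNA were present. Of 19 such genes, 16 were detected. Slbp, whose protein binds the stem-loop, had 8.92 TPM in the 500 ng library, against 12.4 and 7.72 TPM. Npat and Casp8ap2 (FLASH), which act in histone transcription and 3′ end formation, averaged 2.41 ± 0.534 and 5.63 ± 2.51 TPM, and Eri1, an exonuclease that trims the histone 3′ end, 5.27 ± 0.864 TPM. Lsm10, a protein of the U7 particle, averaged 6.83 ± 0.917 TPM. Its partner Lsm11 was below the detection level at 0.41 ± 0.108 TPM, though it had 62, 120 and 64 expected counts in replicates 2, 1 and 3. The annotated U7 RNA gene was listed at 0 in every library, which does not show that the RNA was absent. Whether this small RNA could be counted from fragments with a mean of 183 to 223 bases was not tested. The highest and lowest detected genes of the list were Srrt, with 45.5 ± 4.52 TPM, and Lsm1, with 1.34 ± 0.0681 TPM. Of 18 histone chaperones 17 were detected, led by Daxx with 90.3 ± 27.7 TPM, while Chaf1a, of the complex that loads histones behind the replication fork, was the lowest detected at 1.98 ± 0.967 TPM (SD, n = 3).

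Of 28 S phase and cell cycle genes, 20 were detected. Pcna, the sliding clamp of DNA replication, was the highest, with 30.9 TPM in the 500 ng library, against 36.3 and 22.7 TPM in the 1 µg libraries, and Ccne2 the lowest detected, with a mean of 1.25 ± 0.159 TPM. Their summed level was 110 TPM in the 500 ng library, against 165 and 92.6 TPM in the 1 µg libraries. The libraries did not have the same order for the 2 sets of genes: the histone sum was highest in replicate 3, where the S phase sum was lowest.

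The amount of input RNA is the only difference between the libraries that the labels give, so the 500 ng library was compared with the 1 µg libraries. This sets 1 library against 2, and the input cannot be told apart from the replicate. The histone genes were lower in the 500 ng library almost throughout. Genes with a mean of at least 10 expected counts over the 3 libraries were taken. This rule does not look at which library is high, but 1 library alone can meet it, as for Hist2h3c1. Among these genes, the 500 ng library was below both 1 µg libraries in 54 of 56 histone genes, against 34.9% of all 15353 genes. These values are on the CPM scale (counts per 1000000 counts) with TMM normalisation. The other 2 were Hist2h3c1, described above, and Hist1h2bm, with 0.401 CPM, against 1.12 and 0.336 CPM. Hist1h2bc, Hist2h2be and Hist2h4, in which the 500 ng library fell between the others in TPM, are among the 54. Hist1h2bc had 15.4 CPM, against 17.1 and 22.4 CPM, and Hist2h2be 18.16 CPM, against 18.28 and 26.1 CPM. Hist2h4 had 9.68 CPM, against 10.6 and 14.4 CPM. Of the 13 histone genes under that mean, the 500 ng library was below both others in 7 and above both in 0.

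The median log2 ratio of the 500 ng library to the mean of the 1 µg libraries was -1.32 over these 56 genes and -0.01 over all 15353. It was similar in every class: -1.19 in H1, -1.38 in H2A, -1.45 in H2B, -1.36 in H3 and -1.18 in H4. Other nuclear protein-coding genes with a transcript of at most 1000 bases also leaned the same way, with a median of -0.26 over 436 genes and the 500 ng library lowest in 268 of them (61.5%). The histone genes with transcripts of at most 1000 bases had a median of -1.43 over 38 genes, and those with longer transcripts -0.99 over 18. Over the replication-independent histone genes the median was -0.17 (11 genes), over the S phase genes -0.37 (28), over the chaperones -0.11 (18) and over the genes that act on histone mRNA -0.07 (18). The part of transcript length, fragment length or the amount of input in this difference was not tested. The mean fragment length implied by the effective lengths was 219 bases in the 500 ng library, against 223 and 183 bases in the 1 µg libraries.

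**Figure D4:**
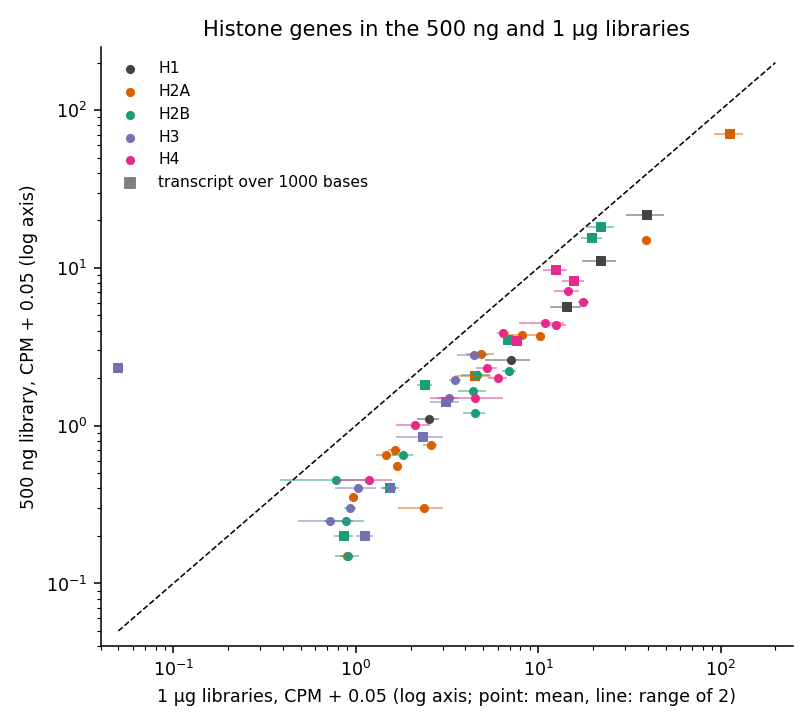
CPM (with TMM normalisation) of 56 histone genes with a mean of at least 10 expected counts, in the 500 ng library (vertical axis) against the 1 µg libraries (horizontal axis; point at the mean, line for the range of the 2 libraries), both plus 0.05 and on log axes. The dashed line marks equal values. All points but Hist2h3c1, at the far left, lie below it.

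No single histone gene passed the test. With edgeR's quasi-likelihood test and Benjamini-Hochberg adjustment over 16254 genes, 3 genes in all passed an adjusted p of 0.05 (0.0185%), and 0 of the 58 histone genes tested did, their smallest adjusted p being 0.771. At an unadjusted p below 0.05 there were 35 of the 58, against 6.19% of all genes: 34 were lower in the 500 ng library, against 3.91% of all genes, and 1, Hist2h3c1, was higher. The filter can keep a gene through 1 library alone, so these 58 are not a neutral sample. Hist2h2aa2 had a log2 fold change of -1.39 (unadjusted p = 0.00112 by edgeR, adjusted p = 0.771), Hist1h4i -1.54 (unadjusted p = 0.00146 by edgeR) and Hist1h1c -0.88 (unadjusted p = 0.0422 by edgeR). The values nearest to 0 among detected genes were those of Hist2h2be (-0.29), Hist1h2bc (-0.36) and Hist2h4 (-0.37), 3 genes with transcripts of more than 1000 bases. DESeq2 called 0 of the 58 histone genes at an adjusted p of 0.05, against 27 of 16254 genes in all (0.166%), and had 22 of the 58 (37.9%) at an unadjusted p below 0.05, against 3.06% of all genes. Without the filter on low counts, edgeR called 14 of 65 histone genes (21.5%) at an adjusted p of 0.05, against 349 of 24311 genes in all (1.44%). Of the comparison lists no gene passed. At an unadjusted p below 0.05 by edgeR, Cenpa, the centromeric H3, was higher in the 500 ng library (log2 fold change 1.44), and Cdt1, a replication licensing factor singled out after its values were seen, was lower (-0.85).

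Over all 3 libraries, the 40 detected histone genes had a median SD of 0.46 on the log2(TPM + 1) scale, against 0.20 for the 9381 other detected nuclear protein-coding genes. The 30 with transcripts of at most 1000 bases had 0.54 and the 10 with longer ones 0.34. The order of the genes was alike between libraries all the same: Spearman's rho over the 69 genes was 0.938 and 0.922 between the 500 ng library and replicates 1 and 3, and 0.953 between those, a description over genes that share lengths and copies and are not independent.

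Because copies share reads, the levels of single genes were also read from the kallisto-format table, after both were scaled to the same total over nuclear protein-coding genes. For 37 of the 69 genes, fewer than 50% of the transcript's 50-base windows were found in no other gene, and in 17 the posterior SD of the count was above 25% of its mean in some library. The kallisto-format level was 0.815 times the RSEM-format level at the median of the 54 genes with a mean of at least 1 TPM, against 1.02 times over 9800 other nuclear protein-coding genes. Only Hist1h2br, among these 54, fell outside the range of 0.5 to 2, at 0.486 (1.85%, against 3.78% of the others). The 54 were taken by their RSEM-format level, so genes set near 0 in that format could not enter. Below that mean, Hist1h2ao had a ratio of 11.2 and Hist2h3c1 of 0. Hist1h2ao had 0, 3.83 and 0 RSEM-format counts in replicates 2, 1 and 3, against 17.6, 29.5 and 20.8 kallisto-format counts. Hist2h2aa2 had a ratio of 0.609 and its copy Hist2h2aa1 of 1.17; the more abundant copy was lower in the kallisto-format table and the other higher. Hist1h2br and its copy Hist1h2bq, in which 98.5% of windows are shared, are annotated with both short and long transcripts, and the share of their TPM in transcripts of more than 1000 bases was 29.2% ± 42.4 and 47.6% ± 35.7 (SD, n = 3), too variable to place.

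**Figure D5:**
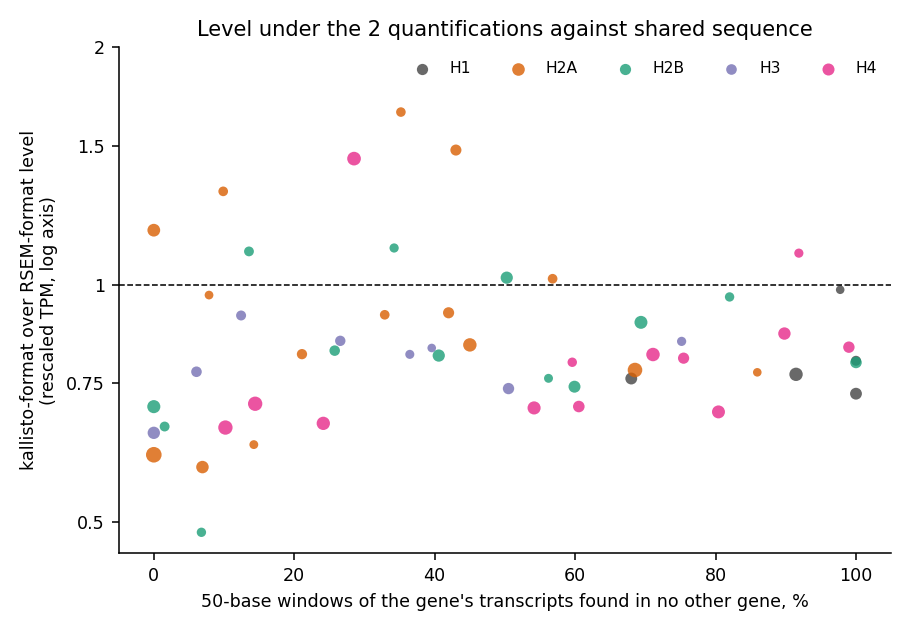
Ratio of the kallisto-format to the RSEM-format level (rescaled TPM, mean of 3 libraries, log axis) of 54 histone genes with a mean of at least 1 TPM, against the percentage of their 50-base windows found in no other gene. Point area grows with the mean level, and the dashed line marks a ratio of 1. Ratios range from 0.486 (Hist1h2br) to 1.66 (Hist2h2ab), and the median is 0.815.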

How the data were processed

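The 3 libraries are total RNA-seq of nuclear RNA, each with tables deposited separately. Per the notes deposited beside the files, the gene and transcript tables were made from alignments to mm10 with GENCODE M21. Their columns are those RSEM writes, and no source used here names the tools or versions. The deposited expected counts, and the estimated counts of the kallisto-format table, are unnormalised values per feature. The deposited TPM and posterior mean TPM carry the authors' scaling to a constant total per library, and the deposited FPKM is per length and depth. The posterior SD of the count is a deposited score in counts.

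The genes and comparison lists were chosen with earlier results of these data known, and no list is tested. The 26345 rows that are not annotated genes (spike-ins, phiX and numeric identifiers) held 0.275% of counts in the 500 ng library and 0.827% and 0.0547% in the 1 µg libraries (replicates 1 and 3) and were left out. Detection means 1 TPM or more in each library, and log values use a pseudocount of 1. For the input comparison, expected counts were rounded, filtered with filterByExpr, scaled by TMM and tested with edgeR 4.0.16 (glmQLFit, threshold 0.05), with DESeq2 1.42.0 as an alternative, in R 4.3.3. In counts simulated for this comparison over 16254 genes, edgeR recovered 5 of 50 genes changed by 2-fold, 42 of 50 by 4-fold, 48 of 50 by 8-fold and 49 of 50 by 16-fold, with 0 false calls. The changed genes were drawn only from those with an expected mean above 50 counts, and the spread of each simulated gene followed the fitted trend. Histone genes below that mean, such as Hist1h3h (mean 24.4 counts) and Hist1h2ai (13.3), are not covered by this recovery. Other values were computed in Python 3.11.15 with pandas 2.3.3. Windows of 50 bases and stem-loops were read from the GENCODE transcripts, promoters from RefSeq. Named genes are the 4 highest and the lowest detected member of each class, every H1 gene, the testis genes, members at 0, members whose quantifications differ, the most and least variable detected members (up to 6 each), the detected replication-independent genes, and set genes and extremes of the other lists. Other genes named were singled out after their values were seen. The alternatives included other units, scales, thresholds, pseudocounts, filters and tools, and leaving out each library.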

Additional observations from a re-analysis of the deposited data

Results flagged for a closer look

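Hist3h2bb-ps, the 1 gene of the family that the choice by symbol leaves out because of its pseudogene suffix, had 5 expected counts in the 500 ng library and 17 and 15 in the 1 µg libraries (replicates 1 and 3), above the limit of 3 counts that a count of 0 allows. In TPM this was 0.78, against 1.91 and 1.67. It is a processed pseudogene on chromosome 11 and shares 22.1% of the windows of Hist3h2ba, which had 1, 5 and 6 counts in replicates 2, 1 and 3. No control library gives its background, and the source of these reads was not tested.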

How the results depend on the processing

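No paired analysis was possible because the libraries form 1 group. Detection, at 40 genes, gave 22 with kallisto-format TPM as deposited but 56 and 55 with kallisto-format and RSEM-format TPM rescaled to a common total, 49 at a TPM of at least 0.5, and between 40 and 52 when 1 library was left out. The median level of 1.80 became 0.92 with kallisto-format TPM, 3.67 and 3.68 with RSEM-format and kallisto-format TPM after rescaling to a common total of nuclear coding genes, and 2.43 over genes with a mean of at least 1 TPM. The difference of medians from the replication-independent genes, 0.16, was -1.65 over genes with a mean of at least 1 TPM and lay between -0.0763 and 0.58 with 1 library left out, reversed without replicate 1 (-0.0763) and without replicate 3 (-0.00694). Expected counts moved the class shares to 16.9% (H1), 39.0% (H2A), 4.49% (H3) and 22.8% (H4), the cluster shares to 52.5% (Hist1), 21.7% (Hist2), 24.2% (Hist3) and 1.49% (Hist4), the H3.1 share to 24.2% and the long-transcript share of Hist1h2bq to 84.0%. Leaving out genes of uncertain counts gave 7.89% for H1, 32.4% for H2A, 38.0% for H4, 27.3% for Hist2 and 0.356% for Hist4. Kallisto-format TPM gave 66.2% for Hist1, 25.8% for Hist2 and 0.481% for Hist4. An alternative chosen after seeing the data, without Hist3h2a, gave 8.03% for H1, 29.2% for H2A, 17.2% for H2B, 38.6% for H4, 69.01% for Hist1, 30.6% for Hist2 and 0.361% for Hist4. The rescaled detection counts, the kallisto-format rescaled median and the kallisto-format count of divergent pairs were also chosen after seeing the data. In the input comparison, the 3 genes called became 349 without a filter (14 of them histone genes), 6 with kallisto-format counts and 27 with DESeq2. The cause of these moves was not tested. Of the other alternatives, 103 of the main results and 252 of the remaining values, mainly levels of single genes, stayed within the tolerance set for each. Another 16 of the remaining values moved beyond it. In counts simulated for the input comparison at this depth and with 1 library against 2, 5 of 50 genes changed by 2-fold and 42 of 50 changed by 4-fold were recovered. All of these had an expected mean above 50 counts, so genes with fewer counts are not covered.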
